A study of Gallus gallus with 16 samples.

Results

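The 4 globin genes described here lie in 2 places of the chick genome. ENSGALG00000023740, ENSGALG00000031597 and ENSGALG00000043234 form the alpha-globin cluster on chromosome 14 of the galGal5 build, between 12156905 and 12164434. ENSGALG00000017347 lies in the beta-globin cluster on chromosome 1, between 194562710 and 194576539. These 4 of the 24881 features in the deposited count table were chosen by their CPM (read counts per 1000000 counts of the library) in all 16 libraries, once those levels were known, and by their position. Their levels and their differences from the control are therefore given as a description, without a test.

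Per the labels, the libraries came from neural crest cells of wild-type chick embryos at Hamburger and Hamilton stage 18, sorted for the fluorescent protein Citrine. The extraction protocol instead names dissected dorsal neural tubes, so it cannot be told which material, sorted cells or tissue, a globin level refers to. Every embryo, control embryos included, had been electroporated with a plasmid that carries Cas9 and Citrine under the broadly active pCAG promoter. The control (2 libraries) received no guide plasmid. The guide plasmids, driven by a U6 promoter, targeted genes for transcription factors: sox3 (2 guide plasmids, 2 libraries), msx1 (1 guide plasmid, 3 libraries), sox10 (2 guide plasmids, 3 libraries) or tfap2b (2 guide plasmids, 3 libraries). A further group of 3 libraries, called double here, carried 3 guide plasmids, both against tfap2b and 1 against sox10. The study asked how targeting these putative core factors alters the transcripts of the vagal neural crest. The labels do not say how many embryos were pooled for a library, nor whether replicate libraries were made from separate embryos. Spreads and p-values therefore measure only the variation between these libraries, which may be technical.

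Globins are the protein chains of haemoglobin, the oxygen carrier of red blood cells, and each haemoglobin molecule joins alpha-type with beta-type chains. In birds the alpha-type and beta-type genes sit in separate clusters, and each cluster holds genes used in the embryo and genes used later. Embryonic bird red cells circulate early, keep their nucleus and are filled with globin mRNA, so that globin transcripts are a common marker of blood in embryonic tissue. Neural crest cells, which leave the dorsal neural tube and give rise to neurons, glia and mesenchyme, are not known for globin production.

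The files pair no gene ID with a name, and 0 of the IDs matched the RefSeq table used here, which is of another build (GRCg7b). That annotation lists 3 globin genes on chromosome 14, in the order HBZ, HBAD and HBA1, between NPRL3 and TMEM8A. HBZ encodes an embryonic alpha-type chain, HBAD the alpha-D chain and HBA1 the alpha-A chain. On chromosome 1 it lists 4, in the order HBE, HBBA, HBE1 and HBBR, of which HBBA encodes the adult beta chain and HBE and HBBR encode embryonic beta-type chains. No ID is given one of these names here. The targeted genes, the defining genes of neural crest and the other genes of red cells (haem synthesis enzymes, membrane proteins and blood transcription factors) need such names, and are not analysed here.

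The 3 chromosome 14 genes lie on the plus strand, one after the other, 2062 and 2095 bp apart. ENSGALG00000023740 spans 12156905 to 12158534, with 4 exon blocks and 1080 bp of exon. ENSGALG00000031597 spans 12160597 to 12161521, with 3 exon blocks and 516 bp of exon. ENSGALG00000043234 spans 12163617 to 12164434, with 3 exon blocks and 566 bp of exon. Each of the 3 holds a block of 205 bp, which is the second block of ENSGALG00000031597 and of ENSGALG00000043234 and the third of ENSGALG00000023740. An arrangement of 3 exons is usual in vertebrate globin genes. ENSGALG00000023740 shares 299 bp of exon (27.7% of its exonic length) with ENSGALG00000032560 on the minus strand, which had 1 count in sox3 library 1 and 0 counts in the other libraries.

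The chromosome 1 feature is built differently. It is on the plus strand and holds 1072 bp of exon in 6 blocks, but the blocks fall into 2 parts of 3 blocks each. The first part runs from 194562710 to 194563900 and the second from 194574953 to 194576539, with 11052 bp between them. Its count is the sum over both parts and cannot be divided between them with the deposited table. ENSGALG00000028273 (194567561 to 194575005, plus strand) lies largely in the gap and shares 53 bp of exon with the second part. Globins are a multigene family with similar sequences, the reads were 40 bp long, and no source used here gives how reads with several matches were counted. The division of reads among the genes is uncertain for that reason.

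In the control the 4 genes were close to undetected. Their summed level was 1.96 CPM in control library 1 and 2.80 CPM in control library 2, from 38 and 62 counts. The 95% exact binomial intervals, which cover counting error only, were 1.39 to 2.69 and 2.15 to 3.59 CPM. Each single gene had 4 to 25 counts in a control library.

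All 14 libraries with guide plasmids held more globin than either control library, over a range of more than 3 orders of magnitude. The sum was 17709, 10127 and 13640 CPM in sox10 libraries 1, 2 and 3, and 16248 and 10316 CPM in sox3 libraries 1 and 2. It was 2515, 5671 and 4095 CPM in tfap2b libraries 1, 2 and 3. The sox10 and sox3 libraries overlapped each other and lay above every tfap2b library.

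The double and msx1 groups were uneven. Double library 1 held 3557 CPM, within the range of the tfap2b libraries, whereas double libraries 2 and 3 held 66.8 and 109 CPM. Similarly, msx1 library 3 held 872 CPM and msx1 libraries 1 and 2 held 8.04 and 9.42 CPM. Within each of these groups, 1 library thus stood far above the other two. In the other 4 groups the highest library was at most 2.26 times the lowest.

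Ordered by group mean, the sum was 13825 ± 3794 CPM (SD, n = 3) with sox10 targeting, 13282 ± 4195 (SD, n = 2) with sox3 targeting and 4094 ± 1578 (SD, n = 3) with tfap2b targeting. It was 1244 ± 2003 CPM (SD, n = 3) in the double group, 297 ± 499 (SD, n = 3) in the msx1 group and 2.38 ± 0.592 (SD, n = 2) in the control. Neighbours in this order were separated, library by library, between sox3 and tfap2b and between msx1 and control. The sox10 and sox3 groups overlapped, as did tfap2b with double and double with msx1. The ratio of group means to the control mean was 5805 for sox10, 5577 for sox3, 1719 for tfap2b, 522 for double and 125 for msx1. On the log2 scale these are 12.50, 12.45, 10.75, 9.03 and 6.96. Without double library 1 the double value fell to 5.20, and without msx1 library 3 the msx1 value fell to 1.87. In these bulk libraries, fewer globin-containing cells and less globin RNA per cell cannot be told apart.

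**Figure D1:**
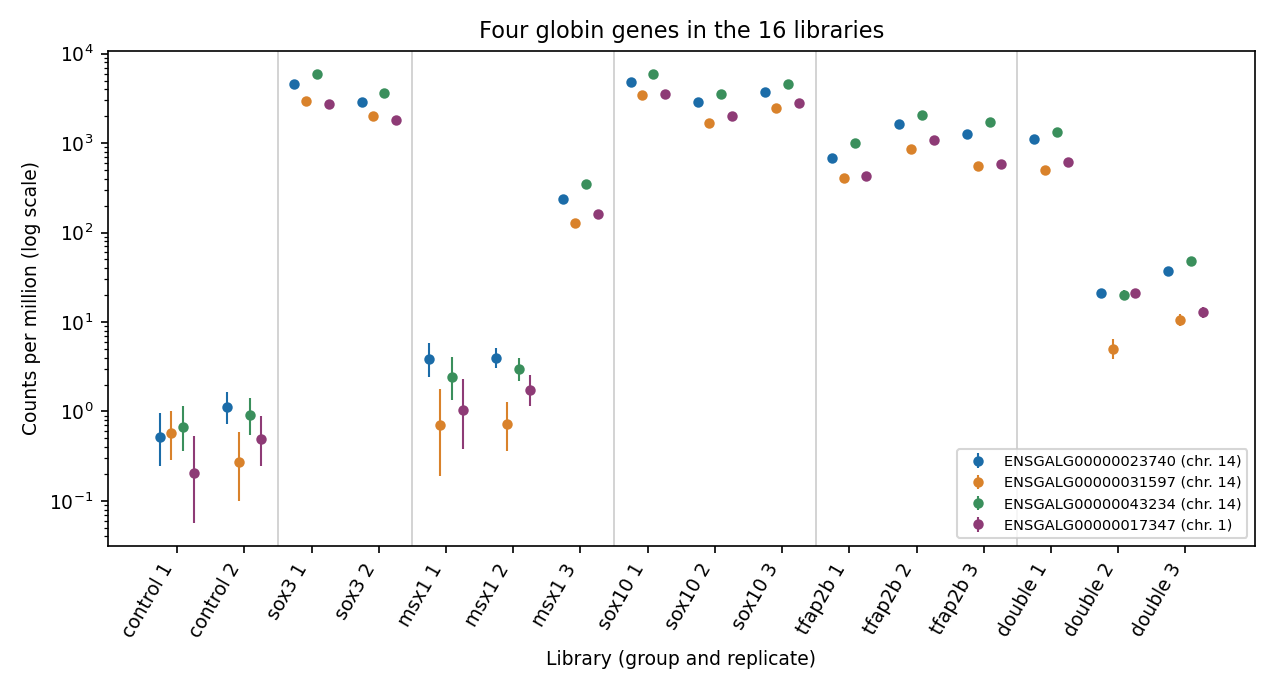
Level of each of the 4 globin genes in the 16 libraries, in CPM on a log axis, 1 point per gene and library, with libraries ordered by group. The 2 control libraries lie near 1 CPM or below for every gene, the sox3 and sox10 libraries lie above 1000 CPM, and double library 1 and msx1 library 3 stand apart from the other libraries of their groups.

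At its highest, globin was a sizeable part of a library. In sox10 library 1 the 4 genes took 161371 of 9112556 counts, 1.77% of the total, and they ranked between place 2 and place 11 among all features by count. The ranks ran from 8 to 46 in sox10 library 2 and from 4 to 17 in sox10 library 3. They ran from 3 to 10 and from 3 to 19 in the sox3 libraries. In these 5 libraries the globin genes were thus among the most counted of all features.

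The ranks were lower elsewhere. They lay between 19 and 530 in the tfap2b libraries and between 54 and 366 in double library 1. In msx1 library 3 they lay between 504 and 2204. They were 3771 or lower in rank in double libraries 2 and 3, 10209 or lower in msx1 libraries 1 and 2, and 11910 or lower in the control.

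ENSGALG00000043234, the last gene of the chromosome 14 cluster, was at 0.672 and 0.903 CPM in the control. It was at 5988 and 3638 CPM in the sox3 libraries and at 5940, 3513 and 4607 CPM in the sox10 libraries. It was at 997, 2083 and 1703 CPM in the tfap2b libraries, at 1323, 19.9 and 47.8 CPM in the double libraries, and at 2.45, 2.99 and 349 CPM in the msx1 libraries. Its level thus spanned almost the full range of the data, from under 1 CPM in the control to 5988 CPM in sox3 library 1.

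ENSGALG00000023740, the first gene of that cluster, was at 0.517 and 1.13 CPM in the control. It was at 4555 and 2853 CPM in the sox3 libraries and at 4796, 2903 and 3755 CPM in the sox10 libraries. It was at 686, 1652 and 1259 CPM in the tfap2b libraries, at 1111, 20.9 and 37.3 CPM in the double libraries, and at 3.85, 3.96 and 235 CPM in the msx1 libraries. Its sox10 and sox3 values overlapped, and every one of them exceeded every tfap2b value.

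ENSGALG00000031597, the middle gene, was at 0.568 and 0.271 CPM in the control. It was at 2931 and 2019 CPM in the sox3 libraries and at 3442, 1686 and 2501 CPM in the sox10 libraries. It was at 405, 857 and 555 CPM in the tfap2b libraries, at 504, 5.01 and 10.6 CPM in the double libraries, and at 0.699, 0.715 and 128 CPM in the msx1 libraries. In msx1 libraries 1 and 2 these levels rest on 4 and 11 counts, so a difference from the control was not detectable at this depth.

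ENSGALG00000017347, the chromosome 1 gene, was at 0.207 and 0.497 CPM in the control. It was at 2774 and 1806 CPM in the sox3 libraries and at 3531, 2025 and 2777 CPM in the sox10 libraries. It was at 426, 1079 and 579 CPM in the tfap2b libraries, at 619, 20.9 and 12.9 CPM in the double libraries, and at 1.05, 1.75 and 160 CPM in the msx1 libraries. Within the groups with guide plasmids, the beta-type feature thus had the same order of libraries as the alpha-type genes, except that double library 2 held more of it than double library 3, while the reverse held for each chromosome 14 gene.

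Set per kilobase of exon, ENSGALG00000043234 had the highest level of the 4 genes in 16 of 16 libraries. In the sox10 group it was at 8281 ± 2148 CPM per kb (SD, n = 3). ENSGALG00000031597 followed at 4928 ± 1703, ENSGALG00000023740 at 3535 ± 878 and ENSGALG00000017347 at 2591 ± 703 CPM per kb (SD, n = 3 each). In the tfap2b group the means had the same order, at 2817 ± 973, 1174 ± 447, 1110 ± 450 and 648 ± 318 CPM per kb (SD, n = 3 each). In tfap2b library 3, however, ENSGALG00000023740 was above ENSGALG00000031597, at 1165 against 1075 CPM per kb. In the double group its mean was above too, at 361 against 335 CPM per kb. The value of ENSGALG00000017347 is an average over both of its parts, so it is not the level of a single globin transcript.

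In the fit across all genes (edgeR, described under processing), the log2 fold changes of the 4 genes against the control were 12.68 to 13.41 for sox10, with standard errors of 3.12 to 3.52. They were 12.13 to 12.63 for sox3 (SE 3.09 to 3.50) and 10.88 to 11.35 for tfap2b (SE 2.95 to 3.31). They were 8.95 to 9.48 for double (SE 2.78 to 3.12) and 6.51 to 7.13 for msx1 (SE 2.53 to 2.92). All 5 comparisons share the control libraries. Every library with guide plasmids was above both control libraries for each of the 4 genes, which is the pattern that led to their choice and is given as a description. The share of all features with this pattern was not computed. For ENSGALG00000031597 it rests on small counts, with 0.699 and 0.715 CPM in msx1 libraries 1 and 2 against 0.568 CPM in control library 1. Among the 14081 genes tested, the share called higher than the control was 19.8% for sox10, 0.575% for sox3, 17.7% for tfap2b, 17.1% for double and 1.07% for msx1. Here and below, a gene is called where its Benjamini-Hochberg adjusted p is under 0.05. Of the 4 globin genes, 0 were called for sox3 and 0 for msx1, and all 4 for sox10, tfap2b and double. The genes were chosen on these levels, so these calls are no test of them.

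Other features of the libraries moved with the globin level. The total count per library ran from 5721022 to 24929531 and had a Spearman rho of -0.55 with the summed globin CPM over the 16 libraries. The summed level of genes on the W chromosome, which only female birds carry, had a rho of -0.70. It was 842 and 843 CPM in msx1 libraries 1 and 2 and 229 CPM in msx1 library 3, the msx1 library with the high globin level. It was 364 and 382 CPM in the control, 302, 246 and 212 CPM in the double libraries, 171 and 162 CPM in the sox3 libraries, and 210, 169 and 161 CPM in the sox10 libraries. The tfap2b libraries had the lowest W levels, 154, 87.3 and 74.1 CPM, but not the highest globin levels. These points share their libraries and groups, and the part of the W level or the depth in the globin difference was not tested.

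Within groups, the libraries differed by more than counting noise. Over the 14 pairs of libraries of a group, the chi-square per degree of freedom across genes was 7.42 to 119, so no 2 libraries were the same data deposited again. This does not show that they came from separate embryos. The closest pairs on a log2 scale were control 1 and 2 (Pearson r across genes 0.989), sox3 1 and 2 (0.983) and msx1 1 and 2 (0.980). In the sox3 pair, the library with 14947150 counts held less globin than the library with 6049569 counts, by -0.66 on the log2 scale for the sum. Single genes differed by -0.54 to -0.72, against a median of 0.04 over all genes compared and -0.16 over the 100 genes highest in CPM per kb. All 4 globin genes thus differed in the same direction in that pair. The 2 medians are of signed differences, so they do not show how far apart a typical gene was.

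The choice of the 4 genes used their levels, not their proportions within a library. The proportions come from the same counts, however, and the tests were chosen with earlier results known. Among sox10, tfap2b and double, the share of ENSGALG00000031597 passed the main test below, and the other proportions tested did not. ENSGALG00000031597 took 24.3%, 20.8% and 23.0% of the counts on the 3 chromosome 14 genes in sox10 libraries 1, 2 and 3. It took 19.4%, 18.7% and 15.8% in the tfap2b libraries and 17.1%, 10.9% and 11.1% in the double libraries. Every sox10 library had a larger share than every tfap2b library, while tfap2b and double overlapped.

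The group means were 22.7% ± 1.76 in sox10, 17.9% ± 1.91 in tfap2b and 13.1% ± 3.54 in double (SD, n = 3 each). The difference among the 3 groups passed an exact permutation test over libraries (p = 0.0107, adjusted over the 3 proportions tested 0.0321). The 3 groups differed in globin level too, so this test cannot tell a difference in share from one that goes with level. The test takes the sum of squares between groups over all 1680 relabellings, has no sign, and cannot give a p below 0.00357. The call did not hold without any 1 of 7 libraries. The exact adjusted p was 0.214, 0.0536 and 0.107 without sox10 1, 2 and 3, and 0.0536, 0.0643 and 0.0750 without tfap2b 1, 2 and 3. It was 0.0536 without double 2, and it stayed past the threshold without double 1 (0.0107) and without double 3 (0.0268). With 8 libraries 560 relabellings remain.

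The share of ENSGALG00000031597 was 21.8% and 23.7% in the sox3 libraries, as in the sox10 group. Msx1 libraries 1 and 2 held 40 and 118 counts on the 3 genes, with 95% exact intervals of 2.79% to 23.7% and 4.75% to 16.1%. The share was 10.0%, 9.32% and 18.01% in msx1 libraries 1, 2 and 3, so the interval of library 1 includes the share of library 3. In the control it was 32.4% (95% exact interval 17.4% to 50.5%) and 11.8% (4.44% to 23.9%), from 34 and 51 counts on the 3 genes, too few to place the control among the other groups. Over the 11 libraries with at least 1000 globin counts, the share had a Spearman rho of 0.85 with the summed globin level, and over all 16 libraries 0.57. These libraries come from groups that differ in level, so the value describes them and is not a test.

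**Figure D2:**
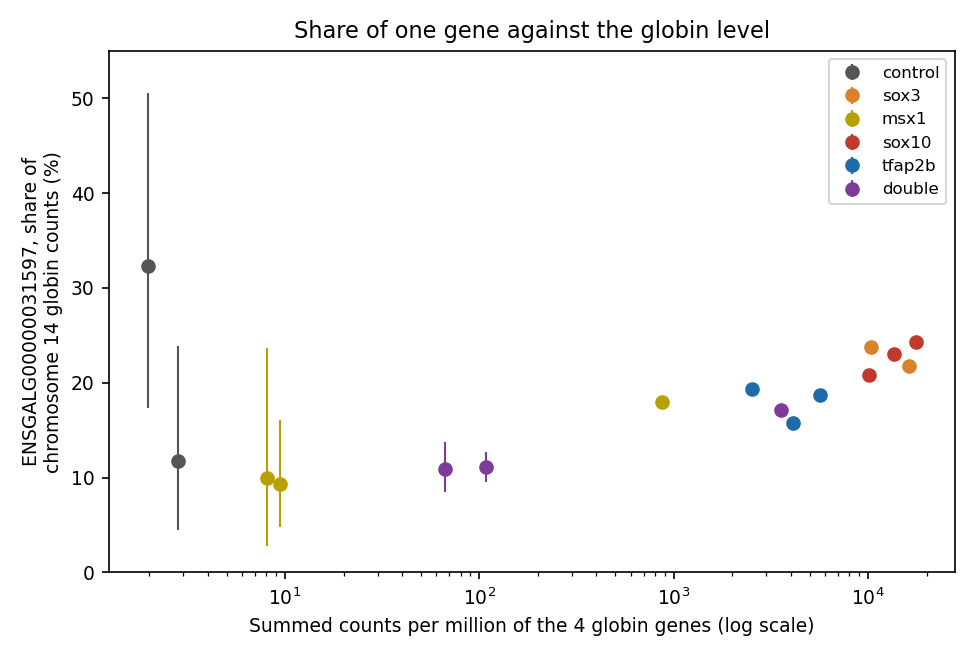
Share of ENSGALG00000031597 in the counts on the 3 chromosome 14 globin genes, in percent, against the summed level of the 4 globin genes in CPM on a log axis, 1 point per library coloured by group, with bars for the 95% exact binomial interval. The sox3 and sox10 libraries, at 10127 to 17709 CPM, have shares of 20.8% to 24.3%, and double libraries 2 and 3 lie at 10.9% and 11.1%.

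ENSGALG00000043234 took 42.6% ± 0.744 of the chromosome 14 counts in the sox10 group, 47.2% ± 1.61 in the tfap2b group and 46.2% ± 3.43 in the double group (SD, n = 3 each). The difference did not pass the exact permutation test (p = 0.0893, adjusted 0.134), although it did without double library 3 (exact adjusted p = 0.0268). Its share was 43.6% ± 1.20 in the sox3 group (SD, n = 2). Over the 11 libraries with at least 1000 globin counts it had a rho of -0.90 with the summed globin level, but over all 16 libraries the rho was 0.27, so its sign depends on the libraries with few globin counts.

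ENSGALG00000023740 made up the remainder, 34.7% ± 1.01 in sox10, 34.9% ± 1.75 in tfap2b and 40.8% ± 4.25 in double (SD, n = 3 each). Its share in double library 2, 45.7%, rests on 576 counts on the 3 genes and has an exact interval of 41.5% to 49.8%. In the sox3 group it was 33.7% ± 0.198 (SD, n = 2), close to the sox10 mean.

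**Figure D3:**
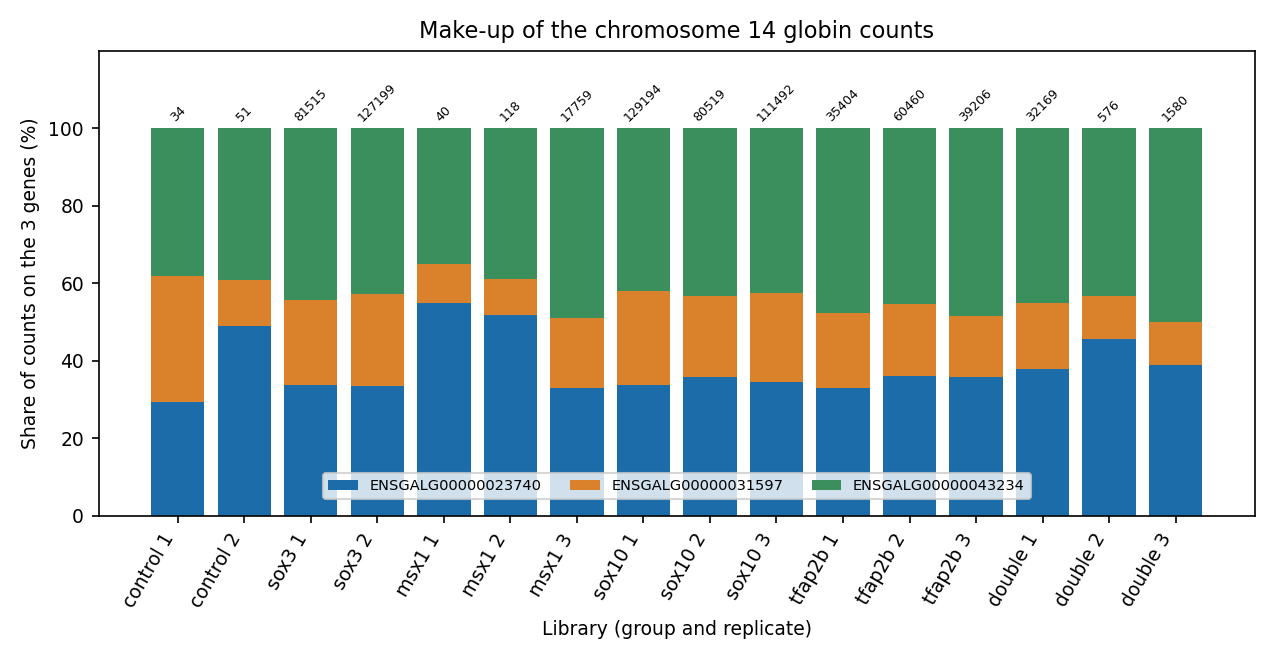
Division of the counts on the 3 chromosome 14 globin genes within each of the 16 libraries, as stacked bars in percent, with the number of counts above each bar. The share of ENSGALG00000031597 is 20.8% to 24.3% in the sox10 libraries and 10.9% to 17.1% in the double libraries; control libraries and msx1 libraries 1 and 2 rest on at most 118 counts.

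The ratio of the beta-type feature to the alpha-type sum was close to constant within the sox10 group, at -2.01, -2.00 and -1.97 on the log2 scale, although the sum varied 1.75-fold between these libraries. It was -2.28 and -2.24 in the sox3 libraries and -2.29, -2.09 and -2.60 in the tfap2b libraries. In the double group it ranged from -1.13 in library 2 to -2.89 in library 3, with -2.25 in library 1. In double library 2 the chromosome 1 feature made up 31.3% of all globin counts (exact interval 28.2% to 34.6%), more than in any other library.

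The means of this log2 ratio were -1.99 ± 0.0204 in sox10, -2.33 ± 0.258 in tfap2b and -2.09 ± 0.890 in double (SD, n = 3 each). They did not pass the exact permutation test (p = 0.725, adjusted 0.725). The sox10 libraries lay above every tfap2b library, while the double libraries spanned both groups.

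The genes beside the clusters were compared with the control in the same fit. Of 28 features within 100 kb of either cluster, 14 had enough counts to be tested, 6 on chromosome 14 and 8 on chromosome 1. The 14 untested features had at most 23 counts each over all libraries. In the sox10 comparison 9 of the 14 were called, 5 higher and 4 lower (64.3%, against 46.4% of all genes tested, or 19.8% higher and 26.6% lower). In the tfap2b comparison it was 6, 3 in each direction (42.9% against 38.6%, or 17.7% higher and 20.9% lower). In the double comparison it was 3, with 1 higher and 2 lower (21.4% against 37.2%, or 17.1% higher and 20.2% lower). In the sox3 comparison it was 1, higher (7.14% against 0.646%, or 0.575% higher and 0.0710% lower), and in the msx1 comparison 1, lower (7.14% against 2.83%, or 1.07% higher and 1.76% lower). The sox3 call, and 1 of the higher calls each for sox10 and tfap2b, was ENSGALG00000028273, which overlaps the chromosome 1 globin feature, had 0 counts in both control libraries and passed the filter through the groups with high globin. It does not show a neighbour apart from globin. Nothing particular to the neighbours is read from these shares.

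**Figure D4:**
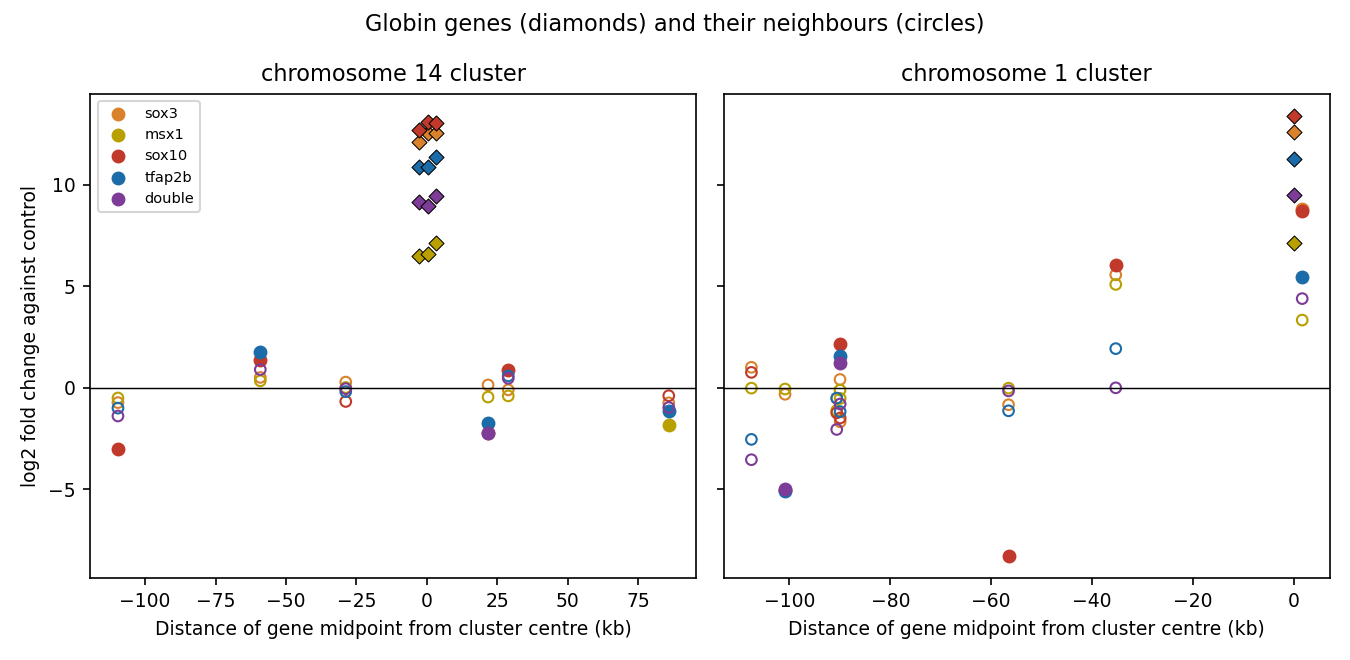
Log2 fold change against the control (edgeR) of the globin genes (diamonds) and of the tested genes within 100 kb (circles), plotted by distance of the gene's midpoint from the centre of each cluster in kb, coloured by comparison. The globin genes lie at 6.51 to 13.41, and ENSGALG00000028273, which overlaps the chromosome 1 globin feature, is at 8.82 for sox3 and 8.72 for sox10.

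The gene directly before the chromosome 14 cluster, ENSGALG00000007456 (12111199 to 12152564, minus strand, 4.34 kb away), was at 49.9 and 49.0 CPM in the control. It was at 15.5, 30.4 and 19.4 CPM in the sox10 libraries, a log2 fold change of -0.67 (SE 0.33, edgeR adjusted p = 0.104), and was called in none of the 5 comparisons. It was called for sox10 in 1 alternative, without sox10 library 2 (edgeR adjusted p = 0.0322).

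The gene directly after it, ENSGALG00000026188 (12176496 to 12188297, plus strand, 12.1 kb away), was at 23.5 and 22.5 CPM in the control. It fell to 4.28, 3.92 and 2.05 CPM in the sox10 libraries (log2 fold change -2.24, SE 0.53, edgeR adjusted p = 0.00281). It was at 4.11, 2.23 and 5.81 CPM in the double libraries (-2.23, SE 0.53, edgeR adjusted p = 0.00373) and at 4.84, 5.85 and 5.29 CPM in the tfap2b libraries (-1.74, SE 0.52, edgeR adjusted p = 0.0153). The tfap2b call was lost without control library 1 (edgeR adjusted p = 0.0818) or control library 2 (0.0636). With the close library pairs summed, an alternative added after seeing the data, the tfap2b and double calls were both lost (edgeR adjusted p = 0.127 and 0.0590).

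Of the 6 tested neighbours on chromosome 14, 2 were called higher and 2 lower for sox10. Among all genes tested, 19.8% were called higher and 26.6% lower, so nothing particular to these neighbours is read from the counts. ENSGALG00000028691 (12094812 to 12108296, plus strand, 48.6 kb before the cluster), named after its values were seen, was at 20.6 and 21.3 CPM in the control and rose to 32.4, 39.3 and 42.3 CPM in the sox10 libraries (log2 fold change 1.39, SE 0.38, edgeR adjusted p = 0.00763). It was at 38.1, 76.5 and 46.2 CPM in the tfap2b libraries (1.75, SE 0.39, edgeR adjusted p = 0.00208). The sox10 call was lost without control library 1 (edgeR adjusted p = 0.0594) or control library 2 (0.0599) and with the close pairs summed (0.113), and the tfap2b call was lost with the close pairs summed (0.0663).

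Around the chromosome 1 feature, the gene directly before it was ENSGALG00000017343 (194532764 to 194535871, minus strand, 26.8 kb away). It had 0 and 13 counts in the sox3 libraries and 3, 4 and 8 in the msx1 libraries, and was called in neither comparison. In the sox10 libraries it had 0, 13 and 1 counts, and in the control none. Its call for sox10 (edgeR adjusted p = 0.0471) therefore rests on sox10 library 2, and it was lost without either control library (edgeR adjusted p = 0.176 and 0.190). It was lost, too, with the close library pairs summed (edgeR adjusted p = 0.175) and by DESeq2 (adjusted p = 0.0971). The feature directly after it, ENSGALG00000030885 (194583674 to 194584633, plus strand, 7.13 kb away), had 1 count in all libraries together.

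ENSGALG00000028273, which overlaps the chromosome 1 globin feature, had its highest levels where the globin genes had theirs, in the sox3 and sox10 groups. It had 0 counts in both control libraries, 25 and 73 counts in the sox3 libraries and 30, 39 and 18 counts in the sox10 libraries. It had 2, 7 and 4 counts in the tfap2b libraries, 5, 1 and 0 in the double libraries and 0, 2 and 3 in the msx1 libraries. Against a floor of 3 counts over the control group, its mean was at least 62.4-fold higher in sox3, at least 41.4-fold higher in sox10 and at least 4.65-fold higher in tfap2b. It was called for sox10 (edgeR adjusted p = 0.00112), sox3 (0.0418) and tfap2b (0.0179). It passed the filter through the groups with high globin and shares exon with a feature chosen for being high there. These calls therefore show nothing apart from globin. With the replicate number as a block the sox3 call was lost, and with the close pairs summed the sox3 and tfap2b calls were lost. The sox3 call was lost without any 1 of the 4 libraries compared: the edgeR adjusted p was 0.582 and 0.526 without control 1 and 2, and 0.155 and 0.181 without sox3 1 and 2. The tfap2b call was lost without control 1 (0.0972) or control 2 (0.112).

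Its counts were small beside those of the globin feature it overlaps. They were 0.149% and 0.270% of the counts on both features in the sox3 libraries and 0.0931%, 0.193% and 0.0631% in the sox10 libraries. Since its exons share bases with ENSGALG00000017347 on the same strand, reads of both cannot be fully told apart, and its value is uncertain.

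Of the other neighbours, ENSGALG00000017299 (chromosome 1, 194478143 to 194481160, minus strand, 81.5 kb before the globin feature) had the smallest adjusted p among those that rose. It was at 432 and 368 CPM in the control and at 1161, 1170 and 1426 CPM in the sox10 libraries (log2 fold change 2.17, SE 0.23, edgeR adjusted p = 5.03e-06). It rose in tfap2b (1.58, SE 0.22) and double (1.24, SE 0.22) too, but was at 563 and 490 CPM in the sox3 libraries, where globin was high (log2 fold change 0.41, SE 0.23, edgeR adjusted p = 0.759). Its order over the groups thus differed from that of the globin genes.

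ENSGALG00000003416 (chromosome 1, 194465096 to 194472407, plus strand, 90.3 kb before) had the smallest adjusted p among those that fell. It was at 45.8 and 51.6 CPM in the control and at 0.329, 0.302 and 2.34 CPM in the sox10 libraries (log2 fold change -5.04, SE 0.73, edgeR adjusted p = 4.78e-05). It fell in tfap2b (-5.09, SE 0.72, edgeR adjusted p = 7.45e-05) and double (-4.97, SE 0.71, edgeR adjusted p = 1.13e-04) too. In the sox3 libraries it was at 43.8 and 33.4 CPM (-0.32, SE 0.70, edgeR adjusted p = 0.979). ENSGALG00000007434 (chromosome 14, 12040976 to 12061073, minus strand, 95.8 kb before) was at 25.8 and 32.7 CPM in the control and fell to 0.329, 3.42 and 3.70 CPM in the sox10 libraries (-3.02, SE 0.65, edgeR adjusted p = 0.00141). Its call was lost when the sox10 and control libraries were fitted alone (edgeR adjusted p = 0.0622). The neighbour called lower in msx1, named after its values were seen, was ENSGALG00000029402 (chromosome 14, 12212172 to 12280905). It was called lower in tfap2b too (log2 fold change -1.16, SE 0.42, edgeR adjusted p = 0.0374), but not in double (-0.97, SE 0.42, edgeR adjusted p = 0.0801). It was at 29.5 ± 1.80 CPM in the control (SD, n = 2) and 8.68 ± 2.59 CPM in msx1 (SD, n = 3; log2 fold change -1.86, SE 0.42, edgeR adjusted p = 0.0253). The msx1 call was lost without msx1 1 or 2 (edgeR adjusted p = 0.134 and 0.124) and without control 1 or 2. It was also lost with the replicate number as a block and with the close pairs summed.

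To see which other genes shared the library pattern, 10760 genes with a mean of at least 5 TMM-scaled CPM in some group were ranked by the Pearson correlation of log2(TMM-scaled CPM + 0.5) with log2 of the summed globin CPM over the 16 libraries. The median r was -0.15, and 6 genes had an r above 0.9. The libraries fall into groups of very different globin level, so these values describe likeness and carry no test.

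The gene most like the globin sum was ENSGALG00000044240 (chromosome 1, 51163992 to 51164879, minus strand, 1 exon block), with r = 0.957 and a Spearman rho of 0.959. It was at 0.258 and 0.361 CPM in the control, 626 and 561 CPM in the sox3 libraries and 814, 315 and 413 CPM in the sox10 libraries. It was at 212, 142 and 78.3 CPM in the tfap2b libraries, 148, 27.1 and 2.00 CPM in the double libraries and 8.22, 1.04 and 29.7 CPM in the msx1 libraries. As for globin, double library 1 and msx1 library 3 were the highest of their groups, and the sox3 and sox10 libraries kept the globin order. By contrast, tfap2b library 1 was the highest of its group but held the least globin of that group. Double library 2 exceeded double library 3, and msx1 library 1 exceeded msx1 library 2, the reverse of globin. This gene, too, was picked by its correlation over these libraries. Without the 2 libraries farthest from the median, both control libraries, r was 0.928.

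The next was ENSGALG00000014673 (chromosome Z, 57406344 to 57409119, minus strand, 4 exon blocks), with r = 0.939 and rho = 0.932, and r = 0.911 without the control libraries. It was at 1.45 and 0.361 CPM in the control, 366 and 328 CPM in the sox3 libraries and 218, 273 and 107 CPM in the sox10 libraries. It was at 81.8, 65.6 and 14.7 CPM in the tfap2b libraries, 40.6, 12.0 and 6.78 CPM in the double libraries and 2.27, 3.70 and 10.9 CPM in the msx1 libraries. Every sox3 and sox10 value exceeded every tfap2b value. Within groups the order often differed from that of globin. Sox10 library 2 and tfap2b library 1 were the highest of their groups but held the least globin there. Double library 2 exceeded double library 3, the reverse of globin, whereas the sox3 and msx1 libraries kept the globin order.

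At the other end, ENSGALG00000006130 (chromosome 20, 9900969 to 9911514, plus strand, 5 exon blocks) had r = -0.927 and rho = -0.918, and r = -0.903 without the control libraries. It was at 38.0 and 32.7 CPM in the control, 28.0 and 32.8 CPM in msx1 libraries 1 and 2 and 13.5 CPM in msx1 library 3. It was at 3.97 and 3.21 CPM in the sox3 libraries and 4.06, 2.52 and 2.53 CPM in the sox10 libraries. The level was lower in msx1 library 3, which held the most globin of its group, than in its 2 partners. The tfap2b libraries were at 5.55, 3.19 and 5.11 CPM and the double libraries at 14.6, 21.5 and 14.7 CPM. Double libraries 1 and 3 were thus nearly level, although library 1 held far more globin. The gene was picked by its correlation over these same libraries, so such likeness is part of its choice.

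ENSGALG00000000371 (chromosome 27, 2399395 to 2423289, plus strand, 13 exon blocks) came next from the bottom, with r = -0.875, rho = -0.787 and r = -0.801 without the control libraries. It was at 17.6 and 29.4 CPM in the control and had 0 counts in the 6 sox10 and tfap2b libraries, although the sox10 libraries held more globin than the tfap2b libraries. It was at 1.65 and 2.88 CPM in the sox3 libraries, where globin was as high as in sox10.

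**Figure D5:**
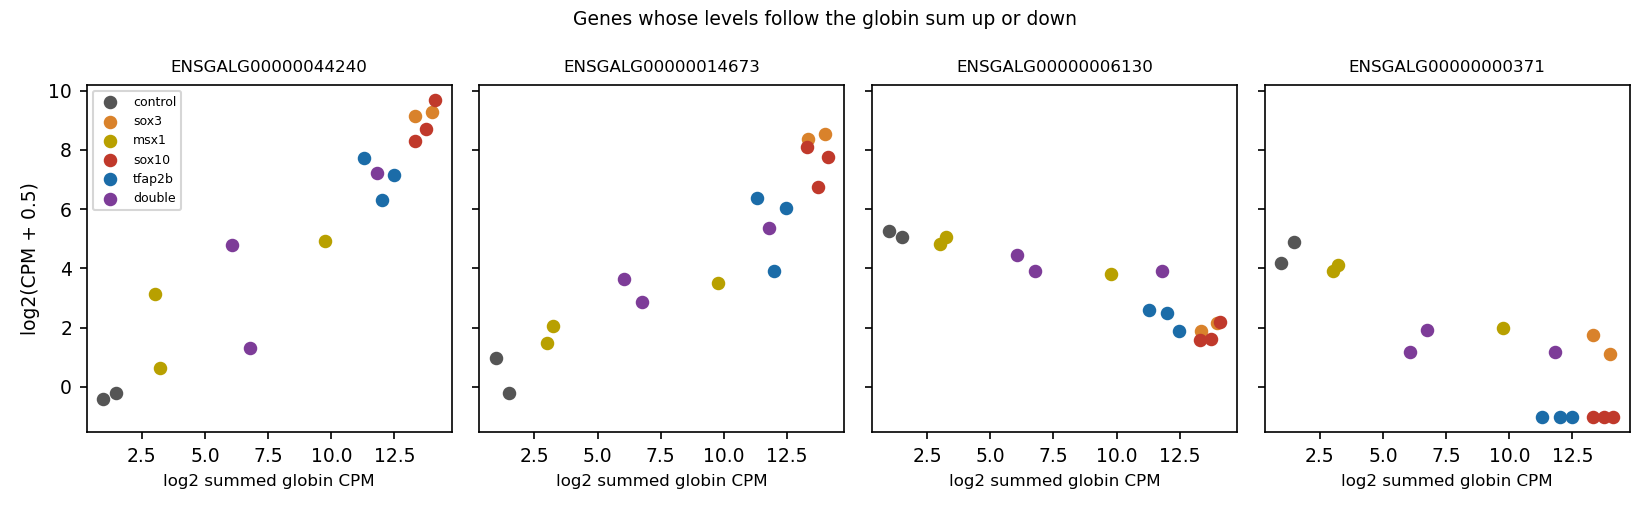
Levels of the 2 genes most like the globin sum and the 2 genes most opposite to it, as log2(CPM + 0.5), against log2 of the summed CPM of the 4 globin genes, 1 point per library coloured by group. The Pearson r values were computed with TMM-scaled CPM of each gene, not with the CPM plotted. Over the 16 libraries r is 0.957 for ENSGALG00000044240, 0.939 for ENSGALG00000014673, -0.927 for ENSGALG00000006130 and -0.875 for ENSGALG00000000371.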

How the data were processed

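The deposited table holds whole-number read counts per gene, not normalized, with positions and exonic length of each gene. The submitters' processing notes name the galGal5 build and the tools STAR 2.4.2a, featureCounts, Subread 1.4.5 and DESeq2. No source used here gives the strand setting, which leaves overlapping features uncertain. Per the labels' protocols, RNA had an integrity number above 6, SMART-Seq v4 and Nextera XT kits were used, and reads were paired. The protocols speak of sorted vagal cells in one place and of dissected dorsal neural tubes in another. SMART-Seq amplifies RNA without molecular identifiers, so counts are not independent molecules.

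CPM values are counts divided by the library total. Of 24881 features, 7091 had no count. Differential expression used edgeR 4.0.16 (with R 4.3.3 and limma 3.58.1), its quasi-likelihood test with robust estimation, TMM scaling, the default expression filter and group as the only factor over all 16 libraries. It kept 14081 genes, with 10 residual degrees of freedom and a biological coefficient of variation of 0.478, and p-values were adjusted over all of them. The procedure was also run on simulated data with the same spread for every gene, smaller than in these data, and few changed genes. That run does not measure its error here. A standard error is the log2 fold change over the root of F. Proportions within a library were compared by exact permutation tests, with all relabellings listed directly. The exact binomial intervals and the Spearman rho with the globin level used scipy 1.17.1.

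The members, lists and tests were chosen with earlier results of these data known. Besides the 4 globin genes, the text names the 2 genes most and the 2 least correlated with the globin sum, genes overlapping a globin gene, the genes beside each cluster, and of the neighbours within 100 kb the 2 that rose and the 2 that fell with the smallest adjusted p. Alternatives were RLE scaling, DESeq2 1.42.0, no expression filter, the compared groups alone, the replicate number as a block, the globin genes taken out before scaling, windows of 50 and 250 kb, and leaving out each library. Added after seeing the data were the close library pairs summed, and double library 1 read without double libraries 2 and 3.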

Additional observations from a re-analysis of the deposited data

How the results depend on the processing

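Leaving out 1 library at a time gave log2 ratios of the globin sum to the control of 12.27 to 12.78 for sox10, 12.08 to 12.74 for sox3, 10.44 to 11.03 for tfap2b, 5.20 to 9.59 for double and 1.87 to 7.53 for msx1. TMM and RLE scaling moved the sox10 ratio from 12.50 to 13.04 and 13.14. The sox3 ratio moved only from 12.45 to 12.47 and 12.50, so sox10 and sox3 were closer in CPM than after scaling. Fitted log2 fold changes of the 4 genes were above 0 under every alternative run, at 11.70 to 14.14 for sox10 and sox3, 10.40 to 12.02 for tfap2b, 4.48 to 10.20 for double and 0.66 to 7.87 for msx1. Without 1 sox10, tfap2b, double or msx1 library, 13 or 14 neighbours were tested. Of these, 8 to 9 were called in sox10, 5 to 6 in tfap2b, 4 in double and 0 to 1 in msx1. Over all genes, 6546 of 14060 to 6734 of 14069 were called in sox10 and 4596 of 14008 to 5148 of 14016 in tfap2b. In double it was 4345 of 14007 to 4804 of 14051, and in msx1 126 of 14080 to 407 of 14001. Without 1 control or sox3 library, 1 library is left in a group, so no count is given. Fewer neighbours were then called than in the main fit in every comparison but double, and fewer genes over all. A window of 250 kb gave 30, 24, 21 and 2 in sox10, tfap2b, double and msx1, from 50 genes tested. The shares called over all genes in that fit were 46.4%, 38.6%, 37.2% and 2.83%. A window of 50 kb gave 1 of 8 in double. DESeq2 gave 7 of 15 in double, where it called 6066 of 14701 genes in all. The sox3 and control libraries alone gave 5 of 13, where 4265 of 13188 genes were called. Summing the close pairs leaves 1 control sample, so no count is given for that fit. Fewer neighbours were called there in every comparison, and fewer genes over all. With the replicate number as a block, the number of neighbours called was 0 in sox3 and msx1, where 79 and 362 of 14081 genes were called. Apart from fits with 1 library in a group, the other counts stayed within 1.5 times, although the sox10 call of ENSGALG00000017343 was lost (edgeR adjusted p = 0.0746). The number called over all genes moved with these settings too, and nothing particular to the neighbours is read from the counts. Over 36 same-number pairs, deviations from group means correlated at -0.098 to 0.204, with 3 pairs over 0.1. Pairs of different number were not compared, so these values cannot tell whether the numbers pair the libraries.

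Without 1 library at a time, the exact adjusted p of the ENSGALG00000031597 share was 0.0107 to 0.214, of the ENSGALG00000043234 share 0.0268 to 0.354 and of the chromosome 1 to chromosome 14 ratio 0.118 to 0.811. Requiring 1000 globin counts drops double 2 and gave 0.0536 for the ENSGALG00000031597 share. Without double 2 and 3, 1 double library is left, with a share of 17.1% and no test. As a log2 ratio to ENSGALG00000023740, ENSGALG00000043234 was higher in sox10 (0.29) than in double (0.18), the opposite order to its share (exact adjusted p = 0.171). As a percent of globin counts, the chromosome 1 feature was at 20.1% in sox10 and 20.2% in double, opposite in order to the log2 ratio (exact adjusted p = 0.775). Without double 3 that log2 ratio was likewise higher in double, -1.69 against -1.99 (exact adjusted p = 0.293). The cause of these changes was not tested. In the control, 38 and 62 globin counts limit what can be said of proportions.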
